A study of Mus musculus with 18 samples.

Results

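Rag1, Rag2, Dntt, Ptcra and Arpp21 are genes that thymocytes use while they assemble their antigen receptor, and their transcript levels were followed across 7 sorted thymocyte populations. They were taken by name from a table of 34082 gene symbols, and all 5 were present. All 5 also had at least 1 FPKM (a transcript level scaled by transcript length and library size) in at least 2 libraries, the minimum for a test, as did 24525 genes in all. None of the 5 passed the test over all genes in any comparison. By library, Rag1 was at 53.9 to 59.6 FPKM in every DN4 library. Rag2 was at 6.37 to 39.0 FPKM in every DN2 and DN4 library, and both genes were below 1 FPKM in both ImmV2 libraries. Of all tested genes, 10.6% had every DN4 library above both ImmV2 libraries, and 8.95% had every DN2 library above both. Rag1 spread widely within DN1e, DN1 ckit+ and DN1ab. Its highest level was 81.8 FPKM in 1 DN1e library, and 1 DN1 ckit+ library had 37.4 FPKM. Dntt, Ptcra and Arpp21 also spread widely between libraries of the same population.

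Receptor genes are built by cutting and rejoining separate gene segments. RAG1 and RAG2, made from neighbouring genes on mouse chromosome 2, form the recombinase that cuts at the signal sequences beside each segment, and the cut ends are joined by the cell's non-homologous end-joining enzymes. Dntt encodes terminal deoxynucleotidyl transferase, which adds bases at the joins without a template and so widens the receptor repertoire. Ptcra encodes the pre-T alpha chain, which pairs with a finished TCR beta chain to form the pre-T cell receptor, the checkpoint that alpha beta lineage thymocytes pass between the DN3 and DN4 stages. Arpp21, in thymocytes also called Tarpp, encodes an RNA-binding phosphoprotein of immature thymocytes that is known to bind Rag1 mRNA. Recombination of the beta, gamma and delta chain genes begins at the DN2 and DN3 stages, and the alpha chain genes follow after the beta chain has been tested.

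The 18 libraries came from C57BL/6 mouse thymus at postnatal day 10, from about 10000 sorted cells of a population each, with RNA amplified into cDNA before library preparation. The groups were DN1ab (2 libraries), DN1d (2), DN1e (3), DN1 ckit+ (3), DN2 (3), DN4 (3) and ImmV2 (2), the population that the series' design text offers as the one to compare with. All animals were of 1 strain and 1 age, with no allele or treatment given, and the sorting gates behind the names are not stated in the sources used here. DN denotes double-negative thymocytes, without CD4 or CD8, and ckit+ marks cells carrying the receptor Kit. The design text calls the replicates biological, but whether they came from separate animals is not stated, so tests measure the spread between libraries, part of which may be technical.

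The libraries carried limits that touch every value below. Between 34.8% and 53.6% of rows in a library stood at the table's lowest value of 0.01 FPKM, called the floor here, and the tested genes had a median of 6 of 18 libraries at the floor. Housekeeping genes shared this: Actb was under 1 FPKM in 11 libraries and Eef1a1 in 8. No difference is given against a population wholly at the floor. Where some of its libraries were at the floor, 0.01 FPKM entered the mean, so the size of such a difference depends on that value and on the pseudocount. The FPKM values also followed nearly 1 common scale: of the 1000 highest rows of a library, 96.2% to 99.1% held a value that recurred, equal to 6 decimals of log2, in another library, and the last of those rows stood at 53.2 to 55.1 FPKM in every library. A printed FPKM thus follows the gene's rank within its library closely, and how the values came to be shared is not stated. The gates were partly visible in the transcripts. Kit was at 49.9 to 141 FPKM in DN1 ckit+ and at 0.563 to 2.92 FPKM in DN4, and Il2ra, which encodes CD25, was at 25.5 to 80.5 FPKM in DN2 and 1.24 to 3.09 FPKM in DN4. Il2ra was also at 132 FPKM in DN1d 2 and 82.7 FPKM in ImmV2 2, above every DN2 library. Cd44, a DN1 and DN2 marker, was at 0.0563 FPKM or less in every DN2 library and in 2 of 3 DN1 ckit+ libraries. In sorted bulk cells, fewer cells using a gene and less RNA per cell cannot be told apart.

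The promoters of the 4 members with a single annotated start are shown because Rag1 and Rag2 reached their highest medians in DN4 and DN2, and because E proteins, among them HEB (Tcf12) and E2A (Tcf3), are known regulators of recombinase and pre-T alpha genes and bind the E-box CANNTG. Each sequence holds the 250 bases before the start in RefSeq annotation of GRCm38.p6, 5′ to 3′ on the gene's strand, with every CAGCTG, an E-box form bound by E proteins, in capitals. They lie at chr2:101649533-101649782 (minus strand) for Rag1, chr2:101624462-101624711 (plus) for Rag2, chr19:41029025-41029274 (plus) for Dntt and chr17:46763713-46763962 (minus) for Ptcra.
Rag1: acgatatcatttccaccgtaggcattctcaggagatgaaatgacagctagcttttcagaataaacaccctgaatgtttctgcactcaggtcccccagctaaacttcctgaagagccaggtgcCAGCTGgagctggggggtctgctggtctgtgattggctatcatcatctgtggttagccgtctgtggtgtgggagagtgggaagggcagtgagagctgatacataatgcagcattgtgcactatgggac
Rag2: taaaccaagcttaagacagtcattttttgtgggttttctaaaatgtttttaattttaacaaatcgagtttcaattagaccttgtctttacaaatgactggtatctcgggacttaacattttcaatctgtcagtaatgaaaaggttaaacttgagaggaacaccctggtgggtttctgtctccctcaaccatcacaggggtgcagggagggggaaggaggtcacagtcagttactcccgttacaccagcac
Dntt: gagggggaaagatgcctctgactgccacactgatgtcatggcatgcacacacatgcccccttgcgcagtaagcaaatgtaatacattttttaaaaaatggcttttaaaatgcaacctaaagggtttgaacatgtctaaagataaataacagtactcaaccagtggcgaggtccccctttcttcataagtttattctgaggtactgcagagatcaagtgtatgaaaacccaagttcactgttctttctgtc
Ptcra: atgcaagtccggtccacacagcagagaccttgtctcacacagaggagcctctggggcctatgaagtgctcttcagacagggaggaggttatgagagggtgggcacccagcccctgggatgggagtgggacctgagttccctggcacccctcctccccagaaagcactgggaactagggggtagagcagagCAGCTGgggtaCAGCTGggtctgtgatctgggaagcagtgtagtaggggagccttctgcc
CAGCTG occurred 2 times before Ptcra, 1 time before Rag1 and 0 times before Rag2 and Dntt, and 13.0% of 32851 mouse promoters of this length held at least 1, with 1.26% holding at least 2. The wider E-box CANNTG, which includes CAGCTG, occurred 3 times each before Rag1 and Dntt, 2 times before Ptcra and 1 time before Rag2, against 66.2% of promoters with at least 1. The core of Runx sites, TGTGGT, occurred 2 times before Rag1, where 1 match shares its first bases with the end of an E-box, and 0 times before the other 3, and 14.0% of promoters held it at least once. Both strands were searched. These are matches of letters, and no binding was measured. Arpp21 has 9 annotated starts, and 3 of its 9 windows held CAGCTG. Of these 3, 2 overlap and hold the same site.

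**Figure D1:**
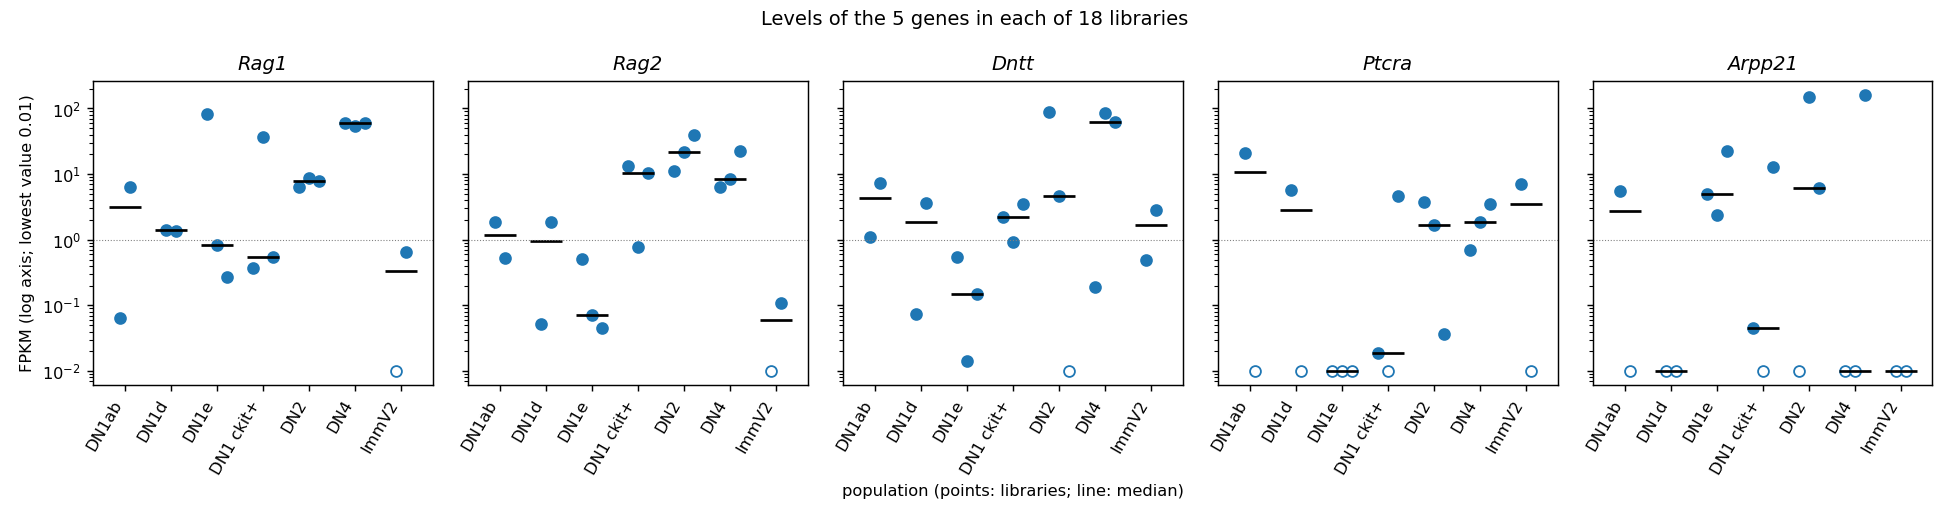
Levels of the 5 genes in FPKM on a log axis, by population, with ImmV2 at the right. Each point is 1 library, an open point stands at the floor of 0.01 FPKM, the bar is the median and the dotted line marks 1 FPKM. The 3 DN4 points of Rag1 lie together at 53.9 to 59.6 FPKM, while Dntt and Arpp21 range from below 1 FPKM to above 80 FPKM within DN2 and within DN4.

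Rag1, the cutting subunit of the recombinase, was at 59.1, 53.9 and 59.6 FPKM in DN4. It was at 6.27, 8.82 and 7.81 FPKM in DN2. In DN1 ckit+ it was at 0.369, 37.4 and 0.545 FPKM. The 3 libraries of DN4 were thus close together and above every DN2 library, and 1 DN1 ckit+ library stood far above its 2 replicates. DN1ab had 0.0633 and 6.28 FPKM, and DN1d had 1.41 and 1.37 FPKM. DN1e had 81.8, 0.842 and 0.275 FPKM. ImmV2 was at the floor in 1 library and had 0.662 FPKM in the other. The highest Rag1 level of the series therefore lay in a single DN1e library, and DN4 did not separate from DN1e. Ordered by mean log2(FPKM + 1), the populations ran DN4 (5.87), DN2 (3.10), DN1e (2.53), DN1 ckit+ (2.11), DN1ab (1.48), DN1d (1.26) and ImmV2 (0.37). Of the 6 neighbouring pairs in that order, DN4 and DN2 did not overlap, nor did DN1d and ImmV2, and the other 4 overlapped. All DN4 libraries lay above all of DN2 in 5.16% of tested genes, and all of DN1d above all of ImmV2 in 12.9%.

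The libraries with a high Rag1 level outside DN4 were not high in Rag2. DN1e 1, with 81.8 FPKM of Rag1, had 0.511 FPKM of Rag2. DN1 ckit+ 2, with 37.4 FPKM of Rag1, had 0.768 FPKM of Rag2. The other DN1 ckit+ libraries were the reverse, with 13.1 and 10.4 FPKM of Rag2 and 0.369 and 0.545 FPKM of Rag1. B-lineage precursors also use both recombinase genes. The summed level of 12 B-lineage markers was 15.5 FPKM in DN1e 1, the lowest of the 3 DN1e libraries, and 82.6 FPKM in DN1 ckit+ 2, between its replicates at 108.5 and 7.96 FPKM. The 8 markers of plasmacytoid dendritic cells, which can carry Rag transcripts, summed to 205 FPKM in DN1 ckit+ 2 against 32.7 and 6.64 FPKM in its replicates. In DN1e 1 they summed to 32.1 FPKM, the lowest of the 3 DN1e libraries. Such sums can rest mostly on 1 marker. The part of these cell types in the Rag1 level was not tested.

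Rag2, the partner that RAG1 needs for cutting, was at 11.3, 21.9 and 39.0 FPKM in DN2. It was at 6.37, 8.37 and 22.8 FPKM in DN4. DN1 ckit+ had 13.1, 0.768 and 10.4 FPKM. These are the 3 populations in which Rag2 exceeded 2 FPKM, and their ranges overlapped. DN1ab had 1.86 and 0.537 FPKM, and DN1d had 0.0520 and 1.89 FPKM. DN1e had 0.511, 0.0715 and 0.0453 FPKM. ImmV2 was at the floor in 1 library and had 0.110 FPKM in the other, so all libraries of DN1ab, DN1 ckit+, DN2 and DN4 were above both. Of all tested genes, 14.9% lay above ImmV2 in this way in DN1ab, 11.0% in DN1 ckit+, 8.95% in DN2 and 10.6% in DN4. By mean log2(FPKM + 1) the order was DN2 (4.49), DN4 (3.56), DN1 ckit+ (2.72), DN1ab (1.07), DN1d (0.80), DN1e (0.25) and ImmV2 (0.08), and each of the 6 neighbouring pairs overlapped. Pooled over populations, the SD of Rag2 between replicates was 0.96 on the log2 scale, lower than that of the other 4 genes. The pooled SD was 1.94 for Rag1, with a median of 1.38 over all genes tested. By population, Rag1 varied less than Rag2 in DN4 (SD 0.08 against 0.89), DN2 (0.22 against 0.85) and DN1d (0.02 against 1.03). Rag1 varied more than Rag2 in DN1ab, DN1e, DN1 ckit+ and ImmV2. In DN1e and ImmV2 all Rag2 values were below 1 FPKM, where this scale understates spread.

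Dntt, whose enzyme adds bases at the joins, reached its high values in 3 libraries of DN2 and DN4. It was at 89.3, 4.56 and 0.01 FPKM in DN2, the last being the floor. It was at 0.191, 86.1 and 61.3 FPKM in DN4. Both populations therefore held libraries at 86.1 FPKM or more and libraries below 1 FPKM. DN1ab had 1.10 and 7.44 FPKM, DN1d had 0.0751 and 3.66 FPKM, and DN1 ckit+ had 2.20, 0.937 and 3.46 FPKM. DN1e was the lowest population, with 0.553, 0.0144 and 0.150 FPKM, below every DN1ab and DN1 ckit+ library. All DN1ab libraries lay above all of DN1e in 12.1% of tested genes, and all of DN1 ckit+ in 9.09%. ImmV2 had 0.486 and 2.89 FPKM. Ordered by mean log2(FPKM + 1), DN4 (4.22) and DN2 (3.00) led and DN1e (0.29) came last, and each of the 6 neighbouring pairs overlapped. In DN2 2 and DN2 3, where Dntt was 4.56 and 0.01 FPKM, Rag2 was 21.9 and 39.0 FPKM.

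Ptcra, the pre-T alpha gene, stayed low in the series, with a highest level of 21.3 FPKM in DN1ab 1. The other DN1ab library was at the floor. DN1d had 5.65 FPKM in 1 library and ImmV2 had 7.08 FPKM in 1 library, and the second library of each was at the floor. All 3 DN1e libraries were at the floor. DN1 ckit+ had 0.0188, 0.01 and 4.72 FPKM. DN2 had 3.72, 1.67 and 0.0363 FPKM. DN4 had 0.693, 1.87 and 3.51 FPKM and was the population with its 3 libraries closest together among those not at the floor, with an SD of 0.71 on the log2 scale. The DN2 and DN4 libraries all lay above DN1e, as in 8.43% of tested genes for DN2 and 10.0% for DN4, and no other pair of the 21 was separated. Ptcra was at the floor in 7 of 18 libraries, and 43.3% of tested genes were at the floor in 7 or more.

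Arpp21 was high in 1 library each of DN4 and DN2 and at the floor in 9 of 18 libraries. DN2 had 0.01, 150.5 and 6.12 FPKM, and DN4 had 0.01, 0.01 and 161 FPKM. DN1e had 4.98, 2.38 and 22.8 FPKM and was the population in which all libraries exceeded 1 FPKM. DN1 ckit+ had 0.0453, 0.01 and 12.7 FPKM, and DN1ab had 5.49 and 0.01 FPKM. Both DN1d and both ImmV2 libraries were at the floor, so no difference is given against them. Its pooled SD within populations was 2.69 on the log2 scale, larger than that of 94.9% of tested genes. The 3 DN4 libraries, with Arpp21 at 161 FPKM or at the floor, had Rag1 at 53.9 to 59.6 FPKM. An effect of Arpp21 on the Rag1 level was not tested.

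Arpp21 hosts a microRNA gene, Mir128-2, which lies inside it on the same strand in GRCm38.p6 and was looked up after the Arpp21 values had been seen. Its main mature product and the product of the other arm are printed from RefSeq, with the seed (bases 2 to 8) in capitals.
mmu-miR-128-3p: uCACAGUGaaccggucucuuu
mmu-miR-128-2-5p: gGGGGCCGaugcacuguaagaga
The Mir128-2 row was at 218 FPKM in DN2 2 and 23.1 FPKM in DN4 3, the libraries with the highest Arpp21 levels. It was at 10.4 FPKM in DN4 2 and 36.6 FPKM in DN1d 1, where Arpp21 was at the floor. It was at the floor in DN1e 3, which had 22.8 FPKM of Arpp21, and in both ImmV2 libraries. Such a row can hold fragments of the host gene's unspliced transcript, and these were not told apart from the microRNA.

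**Figure D2:**
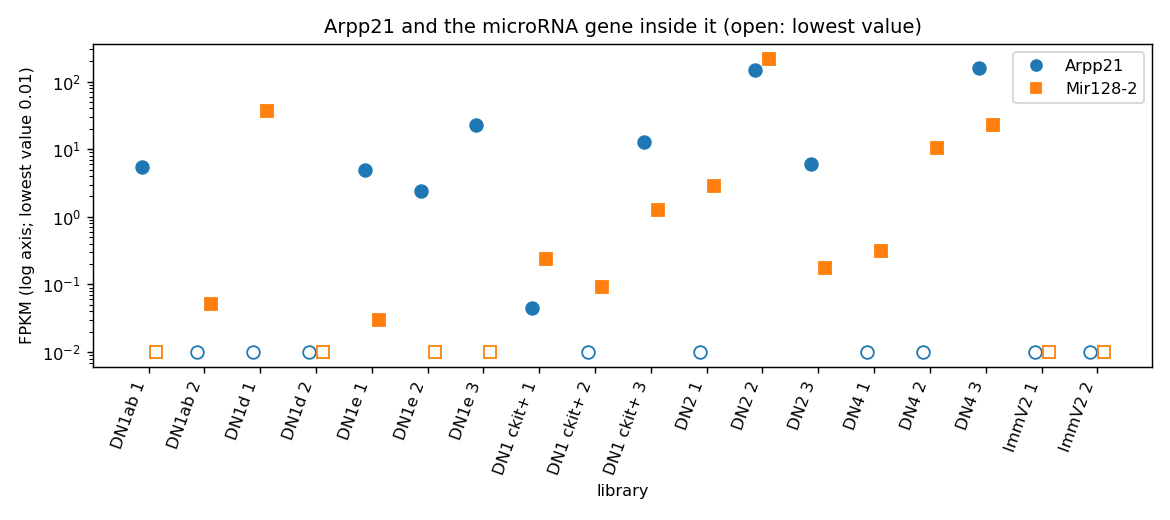
Arpp21 (circles) and Mir128-2 (squares) in FPKM on a log axis in each of 18 libraries, open symbols standing at the floor. Both were high in DN2 2 (150.5 and 218 FPKM) and DN4 3 (161 and 23.1 FPKM), and they parted in DN1d 1 and DN1e 3.

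Differences between populations were tested with limma on log2(FPKM + 1), with p-values adjusted over all 24525 genes and a call at an adjusted p under 0.05 with a log2 difference of at least 1. Across the 7 populations at once, 0 of the 5 genes passed the moderated F test at an adjusted p under 0.05, and 1, Rag2, had an unadjusted p under 0.05. Over all genes 1.4% passed the F test and 11.3% had an unadjusted p under 0.05. Rag2 had an adjusted p of 0.102 in limma and ranked 571 of 24525 genes by p. Rag1 had an adjusted p of 0.498, Dntt of 0.744, Arpp21 of 0.813 and Ptcra of 0.863 in limma.

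In each of the 9 pairwise comparisons limma called 0 of the 5 genes. The share of all tested genes called, in either direction, was 0.396% for DN1ab against ImmV2, 0.277% for DN1d against ImmV2, 0.591% for DN1e against ImmV2 and 0.33% for DN1 ckit+ against ImmV2. It was 0.188% for DN2 against ImmV2, 0.249% for DN4 against ImmV2, 0.0612% for DN2 against DN1 ckit+, 0.0815% for DN4 against DN2 and 0.208% for DN4 against DN1 ckit+. With shares this small, 0 of 5 does not set the members apart from other genes. At an unadjusted p under 0.05, where 5.44% to 10.2% of all genes fell by comparison, 2 of the 5 genes stood out for DN4 against ImmV2 (7.03% of all genes), 1 for DN2 against ImmV2 (6.92%), 1 for DN1 ckit+ against ImmV2 (7.23%) and 1 for DN4 against DN1 ckit+ (7.1%). In the other 5 comparisons it was 0.

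The largest differences were those of the recombinase genes in DN4 and DN2. Rag1 differed between DN4 and ImmV2 by 5.50 ± 1.67 SE on the log2 scale (unadjusted p = 0.00445, adjusted p = 0.329, limma). Rag2 differed between DN2 and ImmV2 by 4.41 ± 1.09 SE (unadjusted p = 0.00091, adjusted p = 0.158, limma), and between DN4 and ImmV2 by 3.48 ± 1.09 SE (adjusted p = 0.372). Every DN4 and DN2 library was above both ImmV2 libraries for Rag1 and for Rag2. All libraries of DN4 lay above all of ImmV2 in 10.6% of tested genes, and all of DN2 in 8.95%, against 2 of the 5 members in each. Rag2 also differed between DN1 ckit+ and ImmV2 by 2.64 ± 1.09 SE (adjusted p = 0.603, limma), with 3 of 3 libraries above both of ImmV2, as in 11.0% of tested genes. Among the DN1 subsets, all libraries lay above ImmV2 for Rag2 in DN1ab (as in 14.9% of tested genes), for Rag1 in DN1d (12.9%) and for Arpp21 in DN1e (9.67%), which is 1 of 5 members each. These comparisons share the 2 ImmV2 libraries. Over the alternatives, pseudocounts and values as deposited included, these differences ran between 3.55 and 9.46 for Rag1 in DN4, 2.41 and 9.33 for Rag2 in DN2, 1.68 and 8.33 for Rag2 in DN4 and 1.21 and 7.16 for Rag2 in DN1 ckit+, and none was called. The median log2 difference of all tested genes was 0.01 in DN2, DN4 and DN1 ckit+ against ImmV2.

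Along the double-negative series the estimates for Rag1 and Rag2 differed in order, and none was called. Rag1 differed by 0.98 ± 1.49 SE on the log2 scale between DN2 and DN1 ckit+ and by 2.77 ± 1.49 SE between DN4 and DN2 (adjusted p = 1 for both, limma). The DN2 difference was 2.56 without DN1 ckit+ 2 and 0.15 without DN1 ckit+ 1, the highest and lowest of the fits that left out 1 library. No member had all DN2 libraries above all of DN1 ckit+, as 5.41% of tested genes did. For Rag1, all 3 DN4 libraries were above all 3 of DN2, as in 5.16% of tested genes. Between DN4 and DN1 ckit+ Rag1 differed by 3.75 ± 1.49 SE (unadjusted p = 0.0226, adjusted p = 0.558, limma), with 3 of 3 libraries above, as in 7.35% of tested genes. Without DN1 ckit+ 2 that difference was 5.33 (adjusted p = 0.232, limma, in a range of 0.232 to 0.853 over the alternatives). Rag2 differed by 1.77 ± 0.98 SE between DN2 and DN1 ckit+ (adjusted p = 0.922, limma) and by -0.93 ± 0.98 SE between DN4 and DN2 (adjusted p = 1), so its estimate in DN4 was below that in DN2 where that of Rag1 was above. Without DN1 ckit+ 2 the Rag2 difference between DN2 and DN1 ckit+ was 0.82, and between DN4 and DN2 it ran between -1.43 and -0.51 leaving out 1 library. Whether the 2 genes differ in these steps was not tested. DN4 libraries also stood apart in 2 of the 6 housekeeping genes looked at. Hsp90ab1 was at 965 to 1521 FPKM in DN4 and at 4.88 FPKM or less in all other libraries, and Eef2 was at 358 to 640 FPKM in DN4 and at 8.69 FPKM or less elsewhere. Their part in the Rag1 level of DN4 was not tested.

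Dntt differed by 2.95 ± 1.81 SE between DN4 and ImmV2 on the log2 scale (adjusted p = 0.809, limma), by 1.73 ± 1.81 SE between DN2 and ImmV2 and by 2.62 ± 1.62 SE between DN4 and DN1 ckit+. The libraries of the compared populations overlapped in each of these. Leaving out DN4 1 made the DN4 differences 4.94 and 4.61, and leaving out DN4 2 made them 1.84 and 1.51. The DN2 difference was -0.020 without DN2 1 and 3.22 without DN2 3. Ptcra differences ran between -0.66 ± 1.37 SE (DN1 ckit+ against ImmV2) and 0.73 ± 1.51 SE (DN1ab against ImmV2) where both populations held libraries above the floor. Arpp21 differed by 2.08 ± 1.93 SE between DN2 and DN1 ckit+ and by -0.91 ± 1.93 SE between DN4 and DN2 (adjusted p = 0.98 and 1, limma). Without DN2 2 the Arpp21 difference between DN2 and DN1 ckit+ was 0.14, the lowest of the fits that left out 1 library, and without DN2 1 it was 3.75, the highest.

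**Figure D3:**
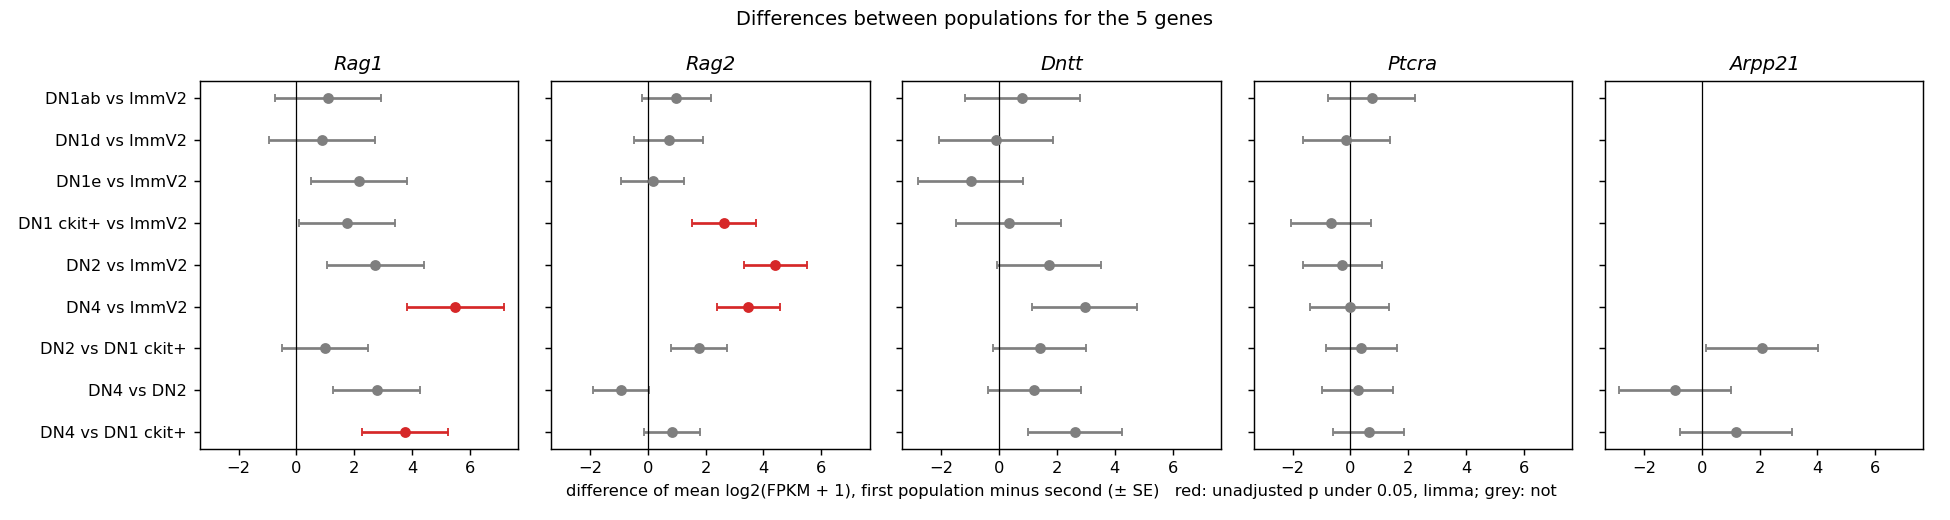
Differences of mean log2(FPKM + 1) between populations for the 5 genes, the first population named minus the second, with bars of ± 1 SE from limma. Red points have an unadjusted p under 0.05, and pairs with a population wholly at the floor are left blank. Rag1 in DN4 against ImmV2 (5.50) and Rag2 in DN2 against ImmV2 (4.41) lie farthest from 0, and no point passed after adjustment.

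The genes that finish what the recombinase starts were examined next, as a list of 18 partners: the Ku subunits Xrcc5 and Xrcc6, the kinases Prkdc and Atm, the hairpin opener Dclre1c (Artemis), the ligase Lig4 with Xrcc4 and Nhej1, polymerases related to the Dntt product, HMG proteins and break sensors. Of 18 members 17 were tested, and limma called 0 in each of the 9 comparisons, with 0 to 2 of 17 at an unadjusted p under 0.05, against 5.44% to 10.2% of all genes. Their median log2 difference was 1.15 for DN4 against DN1 ckit+, 0.80 for DN4 against DN2 and 0.57 for DN4 against ImmV2, beside medians of 0.00, 0.00 and 0.01 over all genes. Hmgb1, a DNA-bending cofactor of RAG cutting, was at 17.4 FPKM or more in every library, with a median of 58.4 FPKM. Rad50, a subunit of a break-sensing complex, was at 1.04 to 128 FPKM. The other 16 were at the floor in at least 1 library each. Lig4, the ligase that closes the joins, was at 3.33, 2.02 and 12.6 FPKM in DN4, at the floor in both ImmV2 libraries and at 12.4 FPKM or less in the others. Polm, a polymerase related to the Dntt product, was at 153 FPKM in ImmV2 1 and below 1 FPKM in the 17 other libraries, so it was not tested. Lig4 and Polm were chosen after their values were seen.

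**Figure D4:**
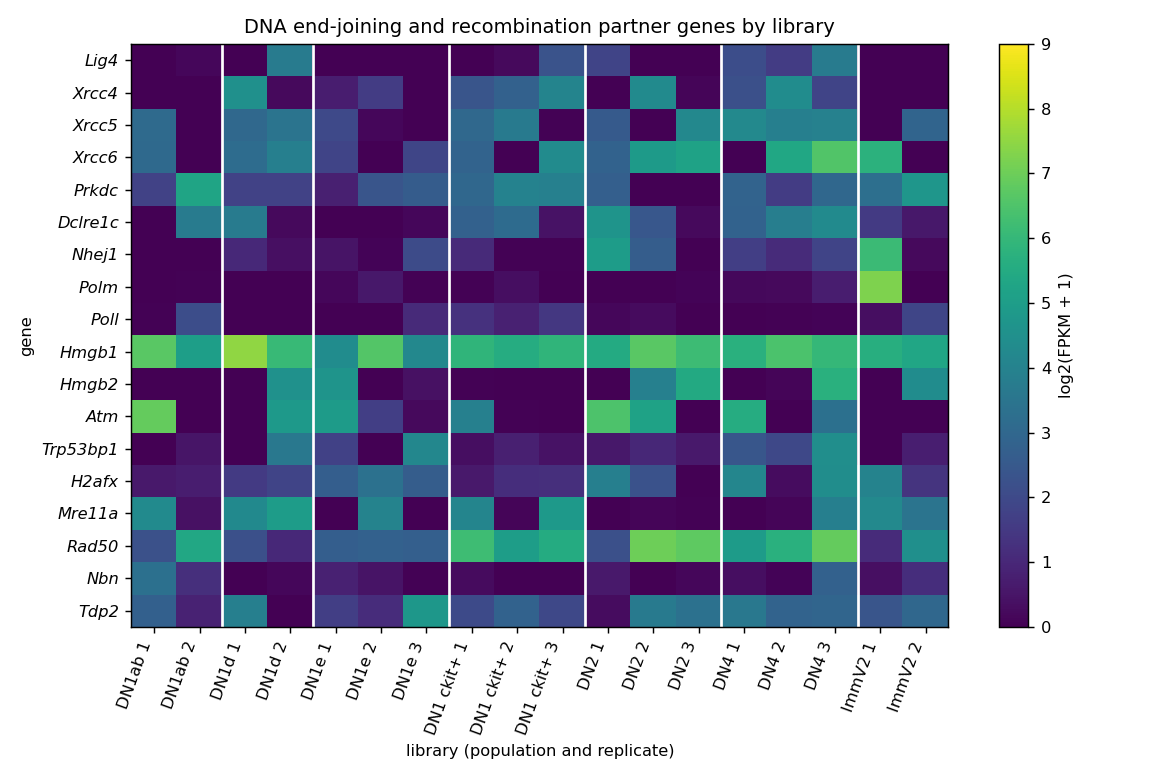
Log2(FPKM + 1) of the 18 end-joining and recombination partner genes (rows) in 18 libraries (columns), with white lines between populations and ImmV2 at the right. Hmgb1 and Rad50 are above 1 FPKM in every library, and the dark cells of the other rows scatter within populations.

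Among 18 regulators of Rag and Ptcra transcription, limma called 1 in each of 3 comparisons and 0 in the other 6. In those 6, 1 to 3 of 18 had an unadjusted p under 0.05, against 5.44% to 7.74% of all genes. In the 3 with a call, 0.208% to 0.591% of all genes were called in either direction. Bcl11b, a factor of T-lineage commitment, was at 17.1, 24.6 and 24.5 FPKM in DN4, against 0.0277, 0.217 and 0.0294 FPKM in DN1 ckit+, a log2 difference of 4.39 ± 0.86 SE with an adjusted p of 0.0476 in limma. That call ended in 17 of 25 alternatives, among them leaving out any 1 library of DN4, DN2 or DN1 ckit+ (adjusted p up to 0.13). It was called lower in DN1 ckit+ than in ImmV2 as well, a log2 difference of -5.03 ± 0.96 SE with an adjusted p of 0.0281 in limma, and this call ended on leaving out any 1 library of either (adjusted p up to 0.18). Id2, which blocks E proteins, was called higher in DN1e than in ImmV2, a log2 difference of 5.09 ± 0.96 SE with an adjusted p of 0.021 in limma, a call that ended without ImmV2 1 and in 4 other alternatives (adjusted p up to 0.352). DN1e was also the population with the highest myeloid markers, their 11 measured members summing to 1227 to 1385 FPKM against 38.1 and 116 FPKM in ImmV2, and Rag2, Dntt and Ptcra were all below 1 FPKM in its libraries. Of the other members, Arpp21 was at 2.38 to 22.8 FPKM in DN1e, and Rag1 was at 81.8 FPKM in DN1e 1 and below 1 FPKM in the other 2. The part of other cells in this was not tested. Tcf12, the gene of the E protein HEB, was at 37.8, 55.9 and 62.9 FPKM in DN4 and at 30.7 FPKM or less in every other library. Against DN2 alone, all DN4 libraries lay above in 5.16% of tested genes. Tcf3, the gene of the E protein E2A, was at 3.77, 1.72 and 14.2 FPKM in DN4 and at 51.7 FPKM in DN2 2. Tcf12 was chosen after its values were seen, and neither gene was called. The part of either gene in the Rag1 level was not tested. The median log2 difference of the list was 1.40 for DN4 against DN1 ckit+, beside 0.00 over all genes.

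The pre-T receptor signals through CD3 chains and their kinases. Of 15 genes in that list, limma called 2 higher for DN4 against DN1 ckit+, where 0.208% of all genes were called in either direction. It called 1 higher for DN4 against DN2 (0.0815% of all genes) and 1 lower for DN1 ckit+ against ImmV2 (0.33%). In the other 6 comparisons it called 0. There, 0 to 5 of 15 had an unadjusted p under 0.05, against 5.94% to 10.2% of all genes. The 5 were reached in DN1ab and in DN2 against ImmV2, where 7.74% and 6.92% of all genes did so. Cd3e, a signalling chain of both receptor forms, was at 170, 105 and 166 FPKM in DN4, against 0.136, 0.01 and 0.83 FPKM in DN2, a log2 difference of 6.82 ± 1.00 SE with an adjusted p of 0.00741 in limma. Its difference between DN4 and DN1 ckit+ was 7.01 ± 1.00 SE (adjusted p = 0.00416), and both calls held under all 25 alternatives. Cd3e was lower in DN1 ckit+ than in ImmV2, a log2 difference of -5.76 ± 1.11 SE with an adjusted p of 0.0322 in limma, a call that ended in 8 alternatives, among them without ImmV2 2 and without any 1 library of DN1 ckit+. Themis, a signalling protein of thymocyte selection, was at 35.9, 42.7 and 33.6 FPKM in DN4 and at the floor in all 3 DN1 ckit+ libraries (adjusted p = 0.042, limma), a call that ended in 13 of 25 alternatives, among them without DN1d 2 and without any 1 library of DN4, DN1e or DN1 ckit+.

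A recombined beta chain gene yields a transcript that ends in a constant region. Trbc2, one of 2 nearly identical beta constant genes, was at 887, 868 and 1081 FPKM in DN4, against 0.01, 2.97 and 0.0504 FPKM in DN1 ckit+, a log2 difference of 9.19 ± 1.62 SE with an adjusted p of 0.023 in limma. It was the 1 gene called of 11 tested in the list of the double-positive transition, the step in which CD4 and CD8 appear. Of all genes, 0.208% were called in either direction for DN4 against DN1 ckit+. In the other 8 comparisons, 1 to 4 of 11 had an unadjusted p under 0.05 (5.44% to 10.2% of all genes). The call ended in 7 of 25 alternatives, among them without DN1 ckit+ 1, without DN1 ckit+ 3 and without any 1 library of DN4. It was at 486, 657 and 495 FPKM in DN2 and did not pass against DN1 ckit+ in limma. The 2 ImmV2 libraries were at 0.01 and 830 FPKM, and all DN1ab, DN1d and DN1e libraries were below 1 FPKM. How reads were divided between Trbc1 and Trbc2 is unknown, and Trbc1 was at the floor in 17 libraries and at 526 FPKM in DN4 3. The lowest levels in the 6 DN2 and DN4 libraries were 6.37 FPKM for Rag2 and 486 FPKM for Trbc2. ImmV2 2 had its 830 FPKM of Trbc2 with 0.110 FPKM of Rag2. Trbc1, and Trbc2 beside Rag2, were chosen after their values were seen. Whether the Trbc2 transcripts came from recombined genes was not tested.

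For each member the 3 genes of most similar pattern were sought by Pearson correlation of log2(FPKM + 1) over the 18 libraries, among 24524 other genes. For Rag2 these were the ribosomal protein genes Rpl30 (r = 0.84) and Rpl34 (0.84) and the myosin light chain gene Myl12a (0.83). For Rag1 they were Pgam1-ps1 (0.81), Rbm19 (0.80) and Calhm2 (0.78). For Dntt they were Tdg (0.89), D19Ertd737e (0.88) and Trmt12 (0.88), for Ptcra Clec16a (0.85), Pfkfb4 (0.80) and Nufip1 (0.79), and for Arpp21 Mdn1 (0.87), Mapkapk5 (0.83) and Psma3 (0.82). Pgam1-ps1 and the ribosomal protein genes have near-identical copies between which reads may be split. None of the 15 is another member or a gene of the lists above. They are the highest of many correlations over few libraries that share populations and a common floor, and are given as a description.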

How the data were processed

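RNA-seq values of 18 libraries from 7 thymocyte populations were used as deposited. The authors' deposited table holds log2 FPKM, 1 row per symbol, with a lowest value of 0.01 FPKM. Per the submitters' processing notes, Bowtie and build mm8 were used. Tool versions, the annotation, the quantifier and any normalization between libraries are not stated there. Of the 1000 highest rows of a library, 96.2% to 99.1% held a value that recurred in another library. Quantile normalization could change little among those rows. The share of rows at the lowest value ran from 34.8% to 53.6% by library. Depth is unknown, since the table has no counts. The tests used log2(FPKM + 1), a scale that understates differences of low genes. The 24525 genes reaching 1 FPKM in 2 or more libraries entered limma 3.58.1 under R 4.3.3 (trend, 1 fit of all 18 libraries, two-sided, Benjamini-Hochberg over all genes). Named genes were the 5 members, called members of the lists (up to 4 per comparison) and the 3 most similar genes per member, passing over clone, Gm, LOC, microRNA and small RNA names. The members and lists were chosen with earlier results of these data known. Alternatives were pseudocounts of 0.1 and 5 FPKM, values as deposited, no filter, quantile normalization, a replicate block, fits of the compared populations alone and leaving out each library. RefSeq sequences of GRCm38.p6 were matched by symbol for all 5 members. Coordinates are of that build and not of mm8.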

Additional observations from a re-analysis of the deposited data

How the results depend on the processing

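The number of members called was 0 in every comparison and in the F test under all alternatives run, leaving out each library included, and the lowest adjusted p of a member was 0.104 (Rag2, DN2 against ImmV2). No pairing by replicate number was seen: of 21 same-numbered pairs 0 had deviations correlated above 0.1 (range -0.0164 to 0.0174). Where both populations had 2 libraries, the 2 pairs give the same value by construction. The check cannot show whether libraries shared animals or sorting days. With the replicate block, 0 members were called, and 9 to 69 genes over all in the 9 comparisons, against 15 to 145 without it. The counts were 28 to 198 with no filter, 4 to 102 and 22 to 165 with pseudocounts of 0.1 and 5 FPKM, 1 to 46 with the values as deposited, 17 to 156 after quantile normalization, 0 to 105 with the compared populations alone and 10 to 330 leaving out 1 library. Signs of uncalled members turned in 30 of 929 settings, with unadjusted p of 0.503 or more. With a pseudocount of 5 FPKM Dntt in DN1d against ImmV2 was 0.011. With a pseudocount of 0.1 FPKM and as deposited, Ptcra was 0.13 and 1.19 in DN2 against ImmV2 and 1.00 and 2.64 in DN4 against ImmV2. As deposited, Dntt in DN2 against DN1 ckit+ was -0.27. With the replicate block Rag2 in DN1e against ImmV2 was -0.14. Leaving out 1 library, the log2 differences that changed sign ranged as follows, with no value where the libraries left in a population were all at the floor: Arpp21 in DN4 against DN2 -2.58 to 1.03, Dntt in DN1 ckit+ against ImmV2 -0.36 to 1.03, Dntt in DN1ab against ImmV2 -0.20 to 1.81, Dntt in DN1d against ImmV2 -1.16 to 0.95, Dntt in DN2 against DN1 ckit+ -0.35 to 2.89, Dntt in DN2 against ImmV2 -0.020 to 3.22, Dntt in DN4 against DN2 -0.27 to 3.21, Ptcra in DN1ab against ImmV2 -0.77 to 2.96, Ptcra in DN1d against ImmV2 -1.64 to 1.22, Ptcra in DN2 against DN1 ckit+ -0.12 to 1.22, Ptcra in DN2 against ImmV2 -1.78 to 0.31, Ptcra in DN4 against DN2 -0.34 to 0.75, Ptcra in DN4 against ImmV2 -1.53 to 0.33, Rag1 in DN1ab against ImmV2 -0.29 to 2.49, Rag2 in DN1d against ImmV2 -0.0091 to 1.45, Rag2 in DN1e against ImmV2 -0.00050 to 0.27, Rag2 in DN4 against DN1 ckit+ -0.11 to 1.39. The causes were not tested. The call of Bcl11b in DN4 against DN1 ckit+ ended in 17 of 25 alternatives (adjusted p up to 0.13 in limma), that of Id2 in 5 (up to 0.352), and those of Igkc and Lyz2 in 3 and 2.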

Other observations

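The marker lists of other cell types were compared with ImmV2 as well. Of 11 myeloid genes tested, 3 were called higher in DN1e, C1qa, Fcer1g and Lyz2. Over all genes, 0.591% were called in either direction for DN1e against ImmV2. Lyz2, a lysozyme, was at 406, 290 and 226 FPKM in DN1e, against 0.149 and 0.0329 FPKM in ImmV2, a log2 difference of 8.10 ± 1.20 SE with an adjusted p of 0.00474 in limma. C1qa and Fcer1g were at the table's floor of 0.01 FPKM in ImmV2. Of 10 B-lineage genes tested, 1 was called higher in DN1d, against 0.277% of all genes called in either direction. This was Igkc, an immunoglobulin constant gene, at 843 and 1205 FPKM in DN1d, with ImmV2 at 2.08 and 0.01 FPKM. Its log2 difference was 9.16 ± 1.47 SE with an adjusted p of 0.00877 in limma. Rag2 and Dntt in these 2 DN1d libraries were at 1.89 FPKM or less and 3.66 FPKM or less. No gene of the plasmacytoid (7 tested), thymic epithelium (6 tested) or gate (6 tested) lists was called in any of the 9 comparisons by limma, with 0 or 1, 0 to 2 and 0 to 3 at an unadjusted p under 0.05. The summed level of the 8 plasmacytoid markers was 307 to 356 FPKM in DN1ab, while the ImmV2 libraries had 13.7 and 403 FPKM. Such a sum can rest mostly on 1 gene, since Ccr9 reached 354 FPKM and Pacsin1 335 FPKM in their highest libraries.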
